A study of Mus musculus with 9 samples.

Results

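The expression of 9 genes of apolipoprotein and lipoprotein transport (Apoe, Clu, Abca1, Abcg1, Lrp1, Vldlr, Lpl, Nr1h2 and Nr1h3) was followed in astrocytes and in SB28 glioblastoma cells sorted from the same co-cultures. The genes were chosen by name and with earlier results of these data known. The set spans lipid export by astrocytes and lipoprotein uptake by tumor cells. All 9 were found among the 49315 gene IDs of the count table. SB28 is a GFP-expressing mouse glioblastoma line of C57BL6 background. The astrocytes were primary cells from neonatal C57BL6 mito::mKate2 mice, in which the CAG promoter drives the red protein mKate2 with a COX8 peptide that sends it to mitochondria. Both cell types were untreated and were mixed 1:1 for 2 days in DMEM F12 medium with FBS, N2, EGF and FGF. RNA was then sequenced from 3 libraries each of sorted astrocytes, SB28 cells without mKate2 signal (mKate2-) and SB28 cells that carried mKate2 signal (mKate2+). According to the study's methods the libraries of a group came from distinct co-cultures, and SB28 cells grown without astrocytes were not analysed here.

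Astrocytes are the main source of lipoprotein particles in the brain. The exporters ABCA1 and ABCG1 load cholesterol and phospholipid onto apolipoproteins such as APOE and clusterin, and receptors such as LRP1 and VLDLR take the particles up into other cells. Lipoprotein lipase frees fatty acids from particles. The nuclear receptors LXRα (Nr1h3) and LXRβ (Nr1h2) sense oxysterols and switch on Abca1, Abcg1, Apoe and other genes of the export route.

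The astrocyte libraries held 24454561 to 35135662 counts each. The SB28 libraries held 27187348 to 35891589 counts where mKate2- and 34175016 to 39287841 where mKate2+. Levels are given as CPM, read counts scaled to the total of the library, and levels of different genes are compared only as TPM, which also divide by exonic length. A chi-square of the counts of 2 libraries of a group, divided by the degrees of freedom, was 82.0 to 144 between astrocyte libraries and 32.1 to 56.0 between mKate2- libraries. In mKate2+ cells it was 148 and 134 for replicate 2 against the other libraries and 17.3 between those, so that replicate 2 stood apart within its group, although astrocyte libraries differed from each other by up to nearly as much. For the members that were tested, the fold changes of mKate2+ cells are also given without replicate 2. Because RNA was measured in bulk, fewer expressing cells and less RNA per cell cannot be told apart.

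Of 15 astrocyte markers, 12 were above a mean of 1 CPM in the astrocyte libraries, and 10 were lower in both kinds of SB28 cells. Slc1a3, the glutamate transporter GLAST, was at 173, 177 and 236 CPM in astrocytes and between 0.560 and 2.38 CPM in the 6 SB28 libraries. The summed level of the 15 markers was 930, 921 and 1643 CPM in astrocytes. It was 333 to 412 CPM in SB28 libraries, where the gap junction gene Gja1 gave most of it, at 241 to 284 CPM. Gjb6, a marker of mature astrocytes, was at 0 in all 9 libraries. The water channel gene Aqp4 was at 59.7 CPM in astrocyte replicate 3 against 5.64 and 6.82 CPM in replicates 1 and 2. The astrocyte libraries also expressed the glial progenitor gene Olig1 (241 to 541 CPM), and the oligodendrocyte lineage markers summed to 983, 542 and 612 CPM against 39.1 to 48.6 CPM in SB28 libraries. Of 8 neural progenitor markers 6 were tested and all 6 were lower in both SB28 groups, with a summed level of 859, 919 and 898 CPM in astrocytes and 236 to 284 CPM in SB28 libraries. The 8 neuronal markers summed to 29.5, 58.2 and 55.8 CPM in astrocyte libraries and 22.4 to 30.4 CPM in SB28 libraries. Of the 6 tested, Stmn2 (11.4, 43.4 and 38.5 CPM against 0.474 to 1.47 CPM), Gad1 and Slc17a7 were lower in both SB28 groups. Tubb3, at 9.45 to 13.2 CPM against 18.2 to 24.8 CPM, was called higher in mKate2+ cells only. Syp, at 0.795 to 1.68 CPM against 2.31 to 3.27 CPM, was called higher in mKate2- cells only. The log2 fold changes in mKate2- and mKate2+ cells were 0.95 and 1.12 for Tubb3 and 1.01 and 0.89 for Syp. These lie on either side of the size threshold of 1, and neither gene was called between the SB28 groups. The 15 microglia and macrophage markers summed to 99.7 to 104 CPM in astrocyte libraries and 75.6 to 93.8 CPM in SB28 libraries, where Tmem119 was the most abundant in SB28 cells. The defining genes Cx3cr1 and C1qa were at or below 0.142 CPM in each of the 9 libraries. P2ry12, another defining gene, was at 1.06, 2.54 and 0.484 CPM in astrocyte libraries and at most 0.0555 CPM in SB28 libraries, and the lysosomal gene Cd68 was at 15.7, 17.9 and 6.69 CPM against 1.54 to 3.54 CPM. Both were lower in both SB28 groups, among 4 markers tested. The 6 fibroblast and mural cell markers summed to 388, 381 and 216 CPM in astrocyte libraries and 151 to 237 CPM in SB28 libraries, most of it from the collagen gene Col1a1, at 325, 324 and 151 CPM against 105 to 181 CPM. Of the 2 tested none was called, and Col1a1 had a log2 fold change of -0.69 (adjusted P = 0.0628, edgeR) in mKate2- and -0.95 (adjusted P = 0.0360, edgeR) in mKate2+ cells. The 6 endothelial markers summed to 1.92, 1.99 and 7.09 CPM in astrocyte libraries, with Cdh5 at 5.64 CPM in replicate 3, and to 0.883 to 1.71 CPM in SB28 libraries. The part of any of these cells in the differences of the 9 genes was not tested.

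Apoe and Clu encode the apolipoproteins of the set. Apoe (ENSMUSG00000002985, GRCm38 chr7:19696109-19699188, minus strand) was at 264, 260 and 270 CPM in the astrocyte libraries. It was at 2.65, 2.67 and 3.22 CPM in mKate2- SB28 cells and at 2.66, 1.96 and 2.78 CPM in mKate2+ SB28 cells. The astrocyte libraries were closely alike, and no SB28 library came near them. The mean level in SB28 cells was 1.08% of that in astrocytes for mKate2- cells and 0.932% for mKate2+ cells. The log2 fold change was -6.52 (SE 0.13, adjusted P = 9.93e-07, edgeR) in mKate2- cells and -6.68 (SE 0.17, adjusted P = 2.89e-06, edgeR) in mKate2+ cells, each against astrocytes.

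The highest of the 6 SB28 values, in mKate2- replicate 3, was 1.22% of the astrocyte mean, and Slc1a3 was also at 1.22% of its astrocyte mean there. The lowest Apoe value, in mKate2+ replicate 2, was 0.740%, and Slc1a3 was lowest in the same library at 0.287%. The astrocyte markers did not share 1 order over the SB28 libraries: of the 10 that were lower in both SB28 groups, 5 were highest in mKate2- replicate 3 and 5 were lowest in mKate2+ replicate 2. Aldoc was at its lowest (0.980%) and Slc1a2 at 0 in mKate2- replicate 3, and Aldh1l1 was at its highest (6.01%) in mKate2+ replicate 2. Whether the Apoe counts of SB28 libraries came from SB28 cells or from astrocyte RNA was not tested.

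Clu, which encodes the chaperone-like apolipoprotein clusterin (ENSMUSG00000022037, chr14:65968483-65981547, plus strand), behaved differently from Apoe. It was at 91.5, 64.6 and 134 CPM in astrocytes, at 136, 104 and 98.8 CPM in mKate2- cells and at 141, 96.4 and 93.1 CPM in mKate2+ cells. The 3 groups overlapped, and the spread was widest among astrocytes. The log2 fold change against astrocytes was 0.24 (95% interval -0.36 to 0.83, adjusted P = 0.445, edgeR) in mKate2- cells and 0.26 (95% interval -0.38 to 0.90, adjusted P = 0.438, edgeR) in mKate2+ cells. Both intervals lie within 1 on the log2 scale and include 0. Without astrocyte replicate 2, the lowest of that group, the value for mKate2- cells was -0.0053. Without astrocyte replicate 3, the highest, it was 0.54 with an adjusted P of 0.0411 (edgeR), and 0.54 with an adjusted P of 0.0836 in mKate2+ cells.

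**Figure D1:**
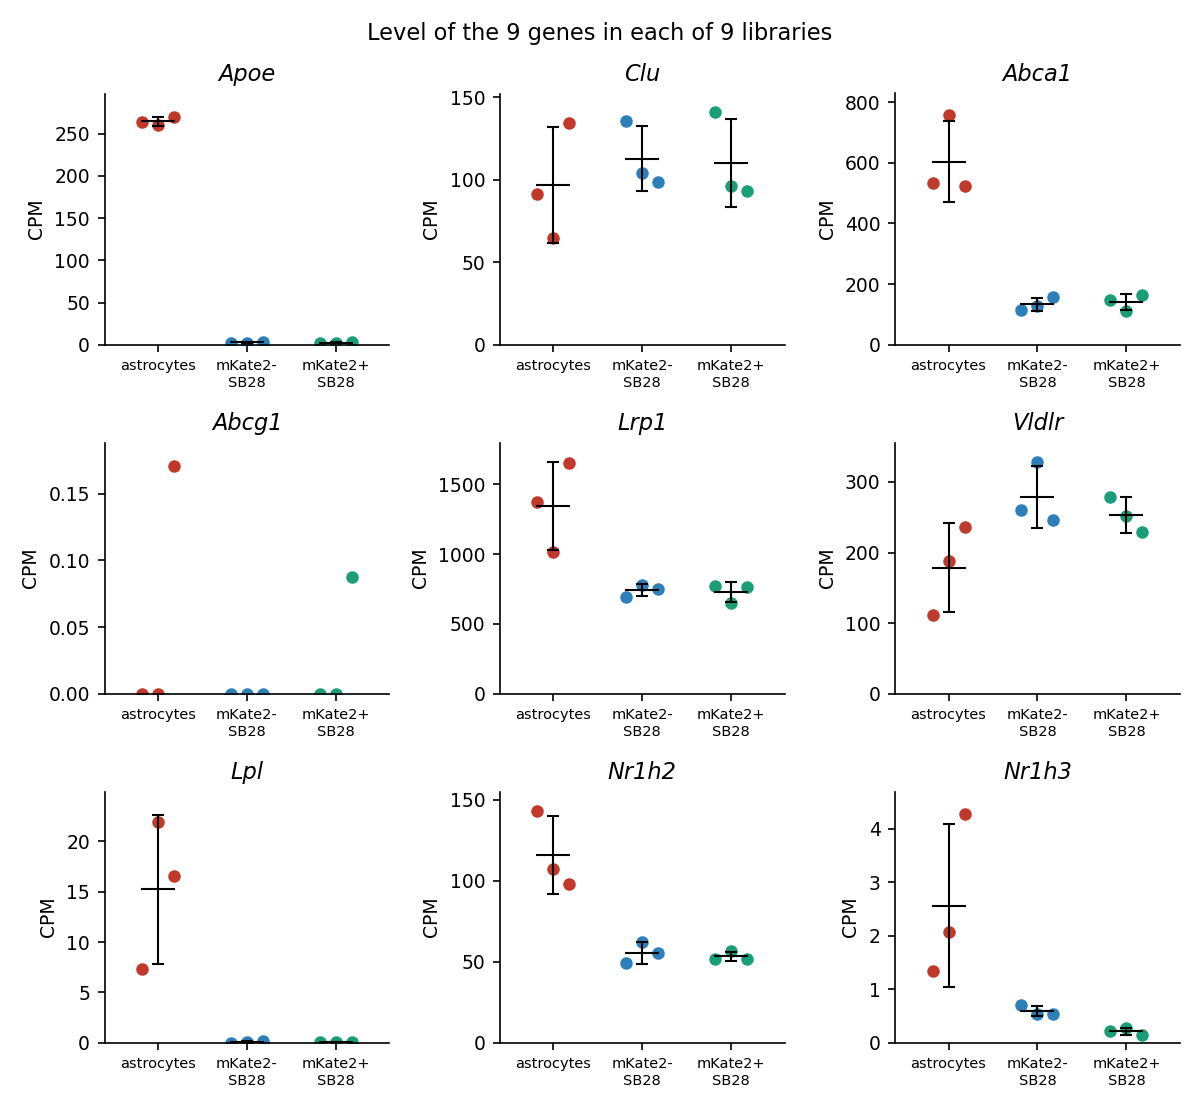
CPM (linear axes from 0, each panel on its own scale) of the 9 genes in the 3 astrocyte (red), 3 mKate2- SB28 (blue) and 3 mKate2+ SB28 (green) libraries, with replicates 1 to 3 from left to right. Black marks give the mean and SD (n = 3), which are left out for Abcg1, where only 2 libraries held counts. Apoe sits at 260 to 270 CPM in astrocytes and at most 3.22 CPM in SB28 cells, whereas Clu overlaps between the groups.

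Abca1 encodes the transporter that hands cellular cholesterol to apolipoproteins and is a classic LXR target, so the bases before its start are shown beside those of Apoe. RefSeq windows (GRCm38.p6) matched 6 of the 9 genes, and the 250 bases before the start, on the gene's strand and 5′ to 3′, were taken for Abca1 at chr4:53159896-53160145 (minus strand) and for Apoe at chr7:19699189-19699438 (minus strand). Capitals mark a match to a loosely spelled LXR element, GGTNA, any 5 bases, GGTNA, searched on both strands.
Abca1: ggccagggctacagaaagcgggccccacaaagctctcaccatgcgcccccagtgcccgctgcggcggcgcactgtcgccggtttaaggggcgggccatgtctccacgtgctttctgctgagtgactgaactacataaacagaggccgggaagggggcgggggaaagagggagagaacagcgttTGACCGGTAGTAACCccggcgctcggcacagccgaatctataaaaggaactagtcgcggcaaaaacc
Apoe: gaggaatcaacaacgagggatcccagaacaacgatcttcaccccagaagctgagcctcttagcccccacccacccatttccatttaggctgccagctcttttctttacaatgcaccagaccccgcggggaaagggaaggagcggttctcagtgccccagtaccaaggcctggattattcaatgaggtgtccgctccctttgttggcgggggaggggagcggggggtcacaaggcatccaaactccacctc
The match in Abca1 lies 67 to 53 bases before the start and reads on the strand opposite to the gene. This spelling was chosen with the Abca1 site known, and 0.718% of the 32851 windows of all genes, each running to 50 bases past the start, held it. Among the members with a window only Abca1 did, and among the 10 genes of the LXR target list with a window Abca1 and Srebf1 did. The strict spelling AGGTCA, any 4 bases, AGGTCA occurred in 0.0152% of all windows and in no window of a member. A match of letters is a description and not a measured site. Elements outside the windows could not be seen, nor any of Clu, Abcg1 and Lpl, which had no window.

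Abca1 (ENSMUSG00000015243, chr4:53030787-53159895, minus strand) was at 533, 757 and 522 CPM in astrocytes. SB28 cells held 115, 129 and 156 CPM when mKate2- and 148, 113 and 163 CPM when mKate2+. Every astrocyte library was above every SB28 library, and the SB28 groups overlapped. The mean level in SB28 cells was 22.1% of the astrocyte level in mKate2- cells and 23.4% in mKate2+ cells. The log2 fold changes were -2.16 (SE 0.19, adjusted P = 5.33e-05, edgeR) and -2.02 (SE 0.19, adjusted P = 0.000127, edgeR).

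Abcg1, a partner exporter that loads lipid onto particles already formed (ENSMUSG00000024030, chr17:31057675-31117988, plus strand), was close to absent from the counts. It had 6 counts in astrocyte replicate 3, 3 counts in mKate2+ replicate 3 and 0 in the other 7 libraries. A count of 0 allows up to 3 counts, or 0.0764 to 0.123 CPM at these depths, so no fold change is given. Abcg1 did not pass the filter of 1 CPM in 2 libraries and was not tested.

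The receptors were expressed by both cell types. Lrp1, a large endocytic receptor for APOE particles and many other ligands (ENSMUSG00000040249, chr10:127538161-127621148, minus strand), was at 1369, 1018 and 1649 CPM in astrocytes, at 693, 779 and 749 CPM in mKate2- cells and at 775, 648 and 761 CPM in mKate2+ cells. Every astrocyte library lay above every SB28 library. The SB28 means were 55.0% and 54.1% of the astrocyte mean in mKate2- and mKate2+ cells. The log2 fold changes of -0.85 (SE 0.18, adjusted P = 0.00465, edgeR) and -0.81 (SE 0.19, adjusted P = 0.00765, edgeR) stayed within the size threshold of 1. Without astrocyte replicate 2, the lowest of that group, they were -1.03 and -1.001 and passed it.

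Vldlr, a receptor for APOE particles and reelin (ENSMUSG00000024924, chr19:27216484-27254231, plus strand), was at 111, 188 and 236 CPM in astrocytes, at 261, 328 and 247 CPM in mKate2- cells and at 279, 252 and 229 CPM in mKate2+ cells. The mKate2- libraries were all above the astrocyte libraries, and the lowest mKate2+ library was below the highest astrocyte library. The log2 fold change was 0.66 (95% interval 0.08 to 1.24, adjusted P = 0.0479, edgeR) in mKate2- cells and 0.58 (95% interval 0.00 to 1.16, adjusted P = 0.0757, edgeR) in mKate2+ cells, below the size threshold in both. The adjusted P in mKate2- cells lay near 0.05 and exceeded it with RLE (0.0537) and upper-quartile normalization (0.0752), with at least 10 counts in every library (0.0748) and with 5 of the 6 libraries left out in turn. The value was 0.41 without astrocyte replicate 1 and 0.90 without astrocyte replicate 3 (adjusted P = 0.00793, edgeR).

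Lpl, which encodes lipoprotein lipase (ENSMUSG00000015568, chr8:68880491-68907448, plus strand), had 178, 716 and 581 counts in astrocytes, equal to 7.28, 21.9 and 16.5 CPM. It had 0, 4 and 4 counts in mKate2- libraries and 2, 3 and 2 counts in mKate2+ libraries. Summed over the libraries of a group, the astrocyte level was 186 times that of mKate2- cells (95% exact counting interval 94.0 to 431) and 250 times that of mKate2+ cells (95% exact counting interval 121 to 623). These intervals cover counting error only. Astrocyte replicate 1, the lowest in its group, was still far above all SB28 libraries. The edgeR log2 fold changes were -7.39 (SE 0.69, adjusted P = 8.22e-05) and -7.74 (SE 0.56, adjusted P = 3.84e-05).

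Both LXR genes were lower in SB28 cells. Nr1h2 (LXRβ, ENSMUSG00000060601, chr7:44549616-44553951, minus strand) was at 143, 107 and 97.8 CPM in astrocytes, at 49.1, 62.5 and 55.3 CPM in mKate2- cells and at 51.7, 56.6 and 51.7 CPM in mKate2+ cells, without overlap between the cell types. Its log2 fold change was -1.05 (SE 0.18, adjusted P = 0.00144, edgeR) in mKate2- cells and -1.05 (SE 0.18, adjusted P = 0.00162, edgeR) in mKate2+ cells. These values lay close to the size threshold and fell within it without astrocyte replicate 1 (-0.86 in both), without mKate2- replicate 1 (-0.96) and with no filter on low counts (-0.99 in both).

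Nr1h3 (LXRα, ENSMUSG00000002108, chr2:91184061-91202834, minus strand) was at 1.35, 2.08 and 4.27 CPM in astrocytes, from 33, 68 and 150 counts. It had 19, 19 and 16 counts in mKate2- libraries (0.699, 0.529 and 0.536 CPM) and 8, 11 and 5 counts in mKate2+ libraries (0.222, 0.280 and 0.146 CPM). The 3 groups did not overlap, and astrocyte replicate 3 was the highest of all. The log2 fold change against astrocytes was -2.11 (SE 0.48, adjusted P = 0.00586, edgeR) in mKate2- cells and -3.46 (SE 0.56, adjusted P = 0.00138, edgeR) in mKate2+ cells. Without astrocyte replicate 3 these values were -1.54 and -2.91. Nr1h3 shares 34 exonic bases on its own strand with Gm13783, and reads from these bases cannot be told apart.

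In all, 5 of the 9 genes (Apoe, Abca1, Lpl, Nr1h2 and Nr1h3) were lower and 0 were higher in SB28 cells than in astrocytes in both comparisons, where a call needs an adjusted P below 0.05 and a log2 fold change of more than 1 in size. By the same rule, 22.4% of the 13356 genes tested were lower and 11.5% were higher in mKate2- cells, and 22.8% of 13342 were lower and 12.2% were higher in mKate2+ cells. The comparisons share the astrocyte libraries. Because the 9 genes were chosen with earlier results of these data known, their counts beside these shares are a description only. Lpl and Nr1h3 passed the filter only through the astrocyte libraries, which favours a call as lower. Apart from them, Apoe, Abca1 and Nr1h2 were lower among the 6 genes above 1 CPM in both cell types. Of all genes tested with a mean above 1 CPM in both cell types, 13.0% were lower and 12.1% were higher in mKate2- cells and 13.2% were lower and 13.1% were higher in mKate2+ cells. Without mKate2+ replicate 2, the count for mKate2+ cells stayed at 5, with Apoe at -6.56, Abca1 at -1.91, Lpl at -7.92, Nr1h2 at -1.12 and Nr1h3 at -3.72 on the log2 scale. Clu was then at 0.32, Lrp1 at -0.76 and Vldlr at 0.56. When 10 counts were required in every library, it was 3 for mKate2+ cells, because Lpl and Nr1h3 were no longer tested.

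**Figure D2:**
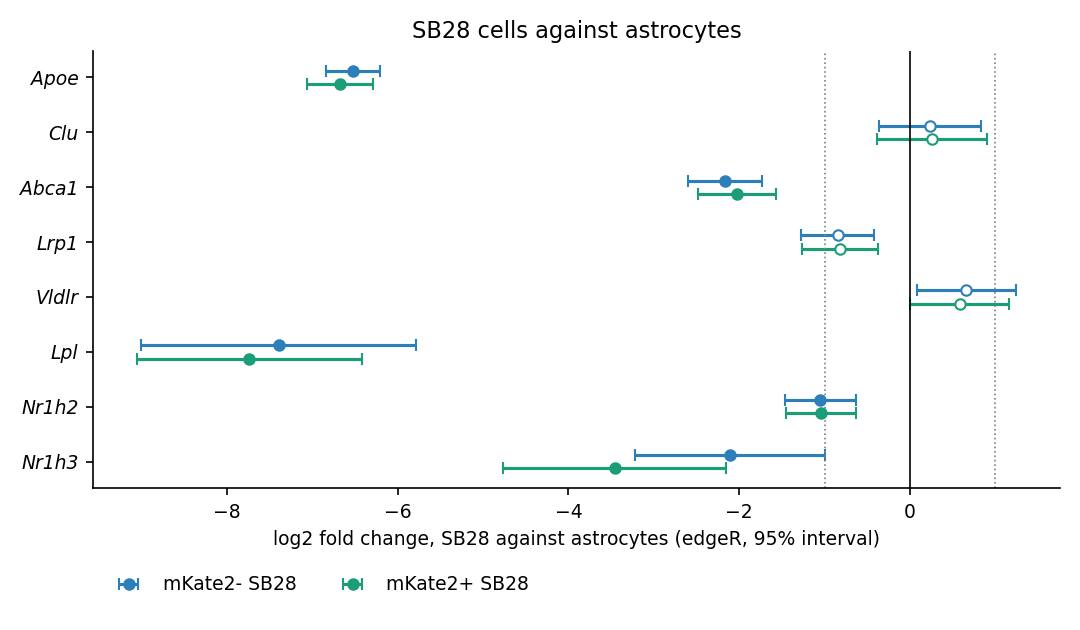
Log2 fold change of mKate2- SB28 (blue) and mKate2+ SB28 (green) against astrocytes from edgeR, with 95% intervals, for the 8 genes tested. Filled circles passed an adjusted P of 0.05 and the size threshold of 1 (dotted lines). Apoe and Lpl lie beyond -6 and Abca1 near -2, whereas Clu, Lrp1 and Vldlr lie within the dotted lines.

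Per length, the set had a different order in the cell types. In astrocytes Apoe led with 389 ± 47.4 TPM (SD, n = 3), above Lrp1 at 237 ± 59.3 TPM and Abca1 at 185 ± 58.2 TPM. Nr1h2 (107 ± 10.2 TPM), Clu (88.2 ± 34.8 TPM) and Vldlr (57.0 ± 24.3 TPM) followed, and Lpl (4.74 ± 2.67 TPM), Nr1h3 (3.28 ± 2.09 TPM) and Abcg1 closed the order. Apoe was above Lrp1 in each library of the group, but the ranges of Lrp1 and Abca1, of Nr1h2 and Clu, of Clu and Vldlr and of Lpl and Nr1h3 overlapped.

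In mKate2- SB28 cells the receptor Lrp1 (135 ± 22.2 TPM, SD, n = 3), Clu (104 ± 5.91 TPM) and the receptor Vldlr (89.1 ± 17.1 TPM) led, and neighbours among these 3 overlapped. Nr1h2 at 53.8 ± 11.01 TPM and Abca1 at 41.9 ± 11.3 TPM came next and overlapped with each other. Apoe was at 4.32 ± 0.972 TPM, above Nr1h3 at 0.745 ± 0.0479 TPM and Lpl at 0.0269 ± 0.0239 TPM. The mKate2+ cells had the same order, with Lrp1 at 128 ± 34.9 TPM, Clu at 101 ± 39.0 TPM, Vldlr at 77.8 ± 18.4 TPM and Apoe at 3.64 ± 1.23 TPM. In mKate2+ replicate 2, Lrp1 was at 88.3 TPM against 153 and 143 TPM in the other mKate2+ libraries. Without this library the means were 148 TPM for Lrp1, 117 TPM for Clu, 86.4 TPM for Vldlr, 52.7 TPM for Nr1h2, 51.2 TPM for Abca1 and 4.35 TPM for Apoe, in the same order. With the length of the longest transcript in place of all exons, Clu came before Lrp1 in both SB28 groups and the other ranks were unchanged.

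Summed by role, Apoe and Clu together reached 406, 482 and 542 TPM in astrocytes and 69.9 to 148 TPM in SB28 libraries. The exporters Abca1 and Abcg1 summed to 139, 250 and 165 TPM in astrocytes and 26.3 to 53.8 TPM in SB28 libraries. The receptors Lrp1 and Vldlr summed to 239, 261 and 382 TPM in astrocytes and 149 to 251.1 TPM in SB28 libraries. The cell types overlapped in the sum of the receptors but not in the sums of the apolipoproteins and of the exporters.

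**Figure D3:**
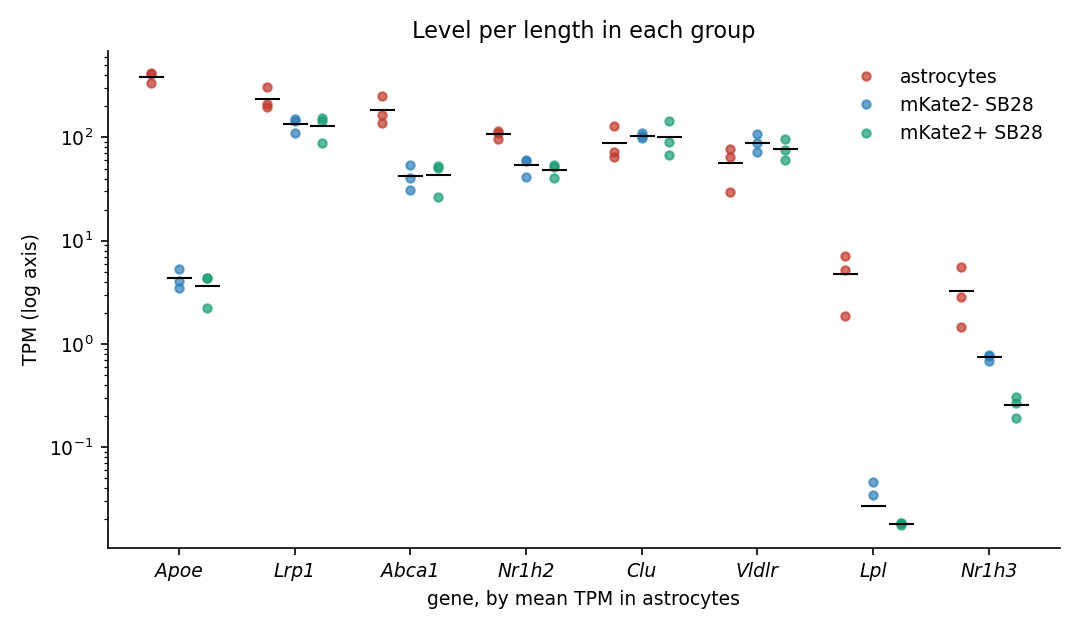
TPM (log axis) of 8 genes in each library, ordered by the astrocyte mean, with astrocytes in red, mKate2- SB28 in blue and mKate2+ SB28 in green. Black marks are group means (n = 3), libraries at 0 cannot be drawn on a log axis (1 mKate2- library for Lpl), and Abcg1 is left out. Apoe falls from 389 TPM in astrocytes to 4.32 and 3.64 TPM in SB28 cells, whereas Lrp1, Clu and Vldlr stay above 55 TPM on average in all 3 groups.

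Within SB28 cells, no member differed between mKate2+ and mKate2- cells at a fold change above 1.5, an unadjusted P below 0.05 and a mean normalized count above 50. These limits follow those of the study's methods for upregulated genes, and their use for lower genes and the reading of the count limit as a mean normalized count were chosen here. By these limits 0.194% of the 11854 genes tested were higher and 0.169% were lower in mKate2+ cells. At an adjusted P below 0.05 there were 0 genes by edgeR and 0 by DESeq2, with 241 genes at an unadjusted P below 0.05 and a smallest adjusted P of 0.923 by edgeR. Of the members, 6 passed the filter. The log2 fold change of Apoe was -0.16 (95% interval -0.64 to 0.32, adjusted P = 0.937, edgeR) and -0.06 without mKate2+ replicate 2. That of Clu was 0.01 (95% interval -0.40 to 0.42).

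Abca1 was at 0.13 (95% interval -0.19 to 0.45) on the log2 scale, and 0.23 without mKate2+ replicate 2. Lrp1 was at 0.02 (95% interval -0.18 to 0.23), Vldlr at -0.09 (95% interval -0.40 to 0.22) and Nr1h2 at -0.01 (95% interval -0.28 to 0.27). Without mKate2+ replicate 2, Clu was at 0.05, Lrp1 at 0.06, Vldlr at -0.13 and Nr1h2 at -0.10. Apart from the interval of Apoe, these intervals lie inside a change of 1.5 times in either direction, and the values of Clu, Lrp1, Vldlr and Nr1h2 changed sign when single libraries were left out.

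**Figure D4:**
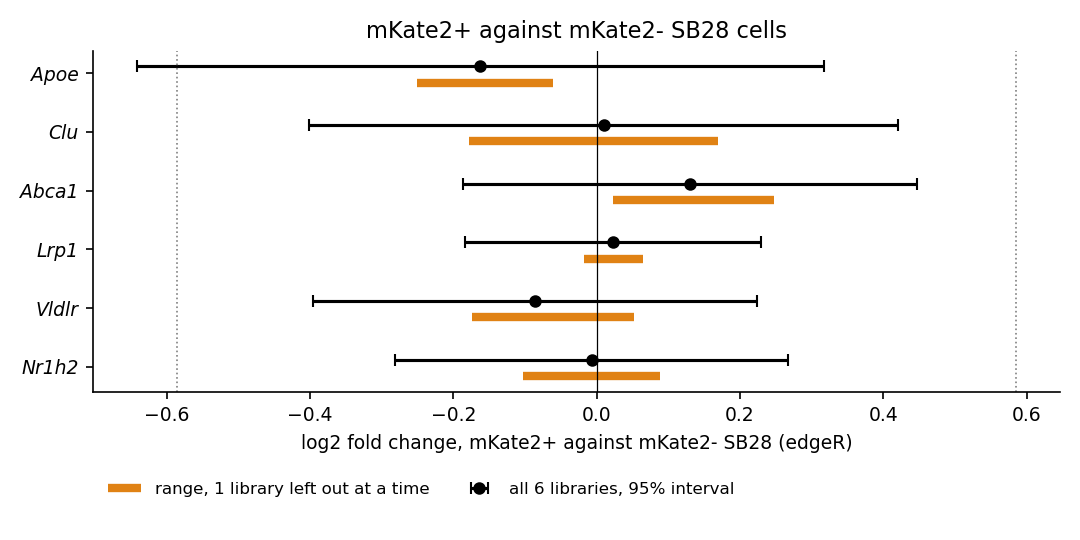
Log2 fold change of mKate2+ against mKate2- SB28 cells from edgeR for the 6 genes tested. Black circles and bars give the value and 95% interval from all 6 libraries, orange bars the range when 1 library is left out at a time, and dotted lines a change of 1.5 times. The values lie between -0.16 (Apoe) and 0.13 (Abca1), and the interval of Apoe alone crosses a dotted line.

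Nr1h3 was the only member whose mKate2+ and mKate2- libraries did not overlap, but its level was below the filter. Summed over libraries it was 2.65 times higher in mKate2- cells (95% exact counting interval 1.61 to 4.49). The exact two-sided permutation test on CPM gave p = 0.1, the smallest that 3 libraries against 3 allow. In the fit with no filter its log2 fold change was -1.35 (SE 0.57, unadjusted P = 0.0235, adjusted P = 0.806, edgeR). Among the 17887 genes with at least 10 counts in the SB28 libraries, 6.68% were lower in mKate2+ cells without overlap and 2.67% were higher without overlap. The 1 such gene among the 8 members with that many counts is not read as a difference against this background.

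The surrounding pathway was described with lists of genes by role, which were also chosen with earlier results of these data known. Among 19 apolipoproteins, 5 were tested, and Apoe and Apod were lower and Apol9a and Apol9b higher in both SB28 groups. Apod passed the filter on low counts through the astrocytes alone and Apol9a through the SB28 cells alone, which favours a call in that direction. Apart from them, Apoe was lower and Apol9b higher among 3 genes above 1 CPM in both cell types. The medians of the list were 0.24 and 0.26 on the log2 scale in mKate2- and mKate2+ cells, where all genes tested had -0.04 and -0.02. Apod was at 0.859, 1.35 and 1.22 CPM in astrocytes and at most 0.0335 CPM in SB28 libraries. Apol9a and Apol9b are near-identical copies whose reads the counting could split, at 0.484 to 0.695 CPM and 1.25 to 2.09 CPM in astrocytes and 1.03 to 1.81 CPM and 2.41 to 4.74 CPM in SB28 cells. The plasma apolipoprotein genes Apoa1 and Apob did not pass the filter. Genes that complete a count here but fall outside the naming rule (Apod, Lrp2, Arl4c, Srebf1, Scd2 and Acsl1) were named after their values were seen.

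Of 7 lipid exporters, 6 were tested and 3 were lower in both SB28 groups, with 0 higher and medians of -1.11 and -1.17 on the log2 scale. Abcg4, a half-transporter that works like ABCG1, was at 9.16, 7.18 and 13.5 CPM in astrocytes and at 0 to 0.369 CPM in SB28 cells, and it passed the filter only through astrocytes. Abca2, a transporter of late endosomes and lysosomes, was at 131, 142 and 175 CPM in astrocytes and 49.6 to 62.2 CPM in SB28 libraries, with log2 fold changes of -1.29 (SE 0.12, adjusted P = 8.58e-05, edgeR) and -1.38 (SE 0.14, adjusted P = 0.000135, edgeR). Abca1 was the other exporter called. Among the 5 exporters with a mean above 1 CPM in both cell types, 2 were lower and 0 higher in each comparison. All genes with such levels had 13.0% lower in mKate2- cells and 13.2% lower in mKate2+ cells.

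Of 18 lipoprotein receptors, 15 were tested, and 13 had a mean above 1 CPM in SB28 cells. Lrp2, Lrp3, Lrp4, Sorl1 and Sort1 were lower in both SB28 groups, and the list's medians were -0.85 and -0.78 on the log2 scale. Sort1, which encodes the sorting receptor sortilin, was at 132, 155 and 197 CPM in astrocytes and 3.26 to 5.30 CPM in SB28 cells. Sorl1, a sorting receptor of endosomes, was at 59.5, 66.1 and 149 CPM in astrocytes and 0.331 to 1.14 CPM in SB28 cells, with astrocyte replicate 3 the highest. Lrp4, a receptor best known from the neuromuscular junction, was at 36.4 to 57.9 CPM against 6.66 to 8.75 CPM, and Lrp3 at 13.8 to 27.2 CPM against 0.0279 to 0.201 CPM. Lrp2 (megalin) was at 46.5, 151 and 103 CPM in astrocytes and 17.999 to 28.5 CPM in SB28 cells.

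Among 10 receptor adaptors and regulators, all tested, Dab2 was higher and Dab1 and Gulp1 were among those lower in both SB28 groups. Dab2, an endocytic adaptor that binds the tails of lipoprotein receptors, was at 43.3, 76.3 and 81.7 CPM in astrocytes and 233 to 318 CPM in SB28 cells, with log2 fold changes of 2.18 (SE 0.22, adjusted P = 0.000104, edgeR) and 2.13 (SE 0.24, adjusted P = 0.000244, edgeR). Dab1, the adaptor of reelin signalling that acts at VLDLR, was at 8.75, 13.1 and 17.0 CPM in astrocytes and at most 0.368 CPM in SB28 cells. The list's medians were 0.09 and 0.17 on the log2 scale.

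Of 13 lipases and remodelling factors, 8 were tested, and Pla2g7 was higher and Lpl, Lcat and Pltp were lower in both SB28 groups. Pla2g7, a lipoprotein-associated phospholipase, was at 46.8, 78.8 and 54.6 CPM in astrocytes and 336 to 430 CPM in SB28 cells, with log2 fold changes of 2.66 (SE 0.20, adjusted P = 3.43e-05, edgeR) and 2.64 (SE 0.21, adjusted P = 5.21e-05, edgeR). Pltp, which transfers phospholipid between particles, was at 137, 99.4 and 131 CPM against 17.1 to 24.5 CPM. Lcat, which esterifies the cholesterol of particles, was at 4.99 to 5.86 CPM against 0.611 to 1.39 CPM. The list's medians were -0.85 and -0.88 on the log2 scale.

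Of 11 nuclear receptors and corepressors of lipid export, 8 were tested, and Nr1h2 and Nr1h3 were the only ones lower, with 0 higher and medians of -0.09 and -0.17. Among the 7 with a mean above 1 CPM in both cell types, 1 was lower and 0 were higher in each comparison. That share lay near the 13.0% and 13.2% of all genes with such levels that were lower. Of 15 LXR target genes, of which 5 are members of the set described here, 11 were tested. Of these Lpl, Nr1h3 and Smpdl3a (9.39 to 24.1 CPM against 0.0736 to 0.268 CPM) passed the filter on low counts through the astrocytes alone, which favours a call as lower. Among the other 8, with a mean above 1 CPM in both cell types, 5 were lower and 1 was higher in mKate2- cells, 4 were lower and 0 were higher in mKate2+ cells, and the medians were -1.21 and -1.15 on the log2 scale. All genes with such levels had 13.0% and 13.2% lower, 12.1% and 13.1% higher and medians of 0.09 and 0.13. Besides Apoe, Abca1 and Pltp, Arl4c (466 to 724 CPM against 201 to 242 CPM) was lower in both. Srebf1 and Scd2, genes of lipid synthesis, were called only in mKate2- cells, at -1.05 and 1.00 against -0.95 and 0.99 in mKate2+ cells, a difference of values on either side of the threshold that was not tested.

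Of 14 genes of endosomal cholesterol handling, all tested, Stard4 was higher and Gramd1a and Gramd1c were lower, with medians of -0.23 and -0.07. Stard4, a carrier of sterol through the cytosol, was at 50.7, 75.5 and 51.7 CPM in astrocytes and 150 to 197 CPM in SB28 cells. Gramd1a was at 114 to 177 CPM against 45.5 to 64.1 CPM and Gramd1c at 5.28 to 6.03 CPM against 0.0878 to 0.469 CPM, both of which encode sterol transfer proteins at contacts with the plasma membrane. Between mKate2+ and mKate2- cells, 0 genes of any of these lists passed the limits used within SB28 cells.

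Lists other than that of the LXR targets also held genes, such as Apod, Abcg4, Lrp3, Sorl1, Dab1 and Gramd1c, that passed the filter through astrocytes alone. The values of list genes and list medians in mKate2+ cells were taken from all 3 libraries. Over the genes with a mean above 1 CPM in both cell types, the medians in mKate2- and mKate2+ cells were -0.23 and -0.27 for the receptors, -0.92 and -0.97 for the exporters, -0.85 and -0.82 for the lipases and 0.46 and 0.41 for the adaptors. In mKate2- cells, 3 of 13 such receptors, 2 of 7 lipases, 1 of 8 adaptors and 1 of 13 endosomal genes were lower. In mKate2+ cells 1 of 6 lipases was lower, and the other counts were the same. Each of these lists had 1 higher gene in both comparisons. All genes with such levels had 13.0% and 13.2% lower and 12.1% and 13.1% higher.

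Exons of Lrp3, Sorl1, Sort1, Dab2, Pltp, Pla2g7, Gramd1a, Srebf1, Acsl1 and Acsl5 overlap a gene on the opposite strand, and since use of the strand is not given in the sources used here, the reads of each pair cannot be told apart.

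**Figure D5:**
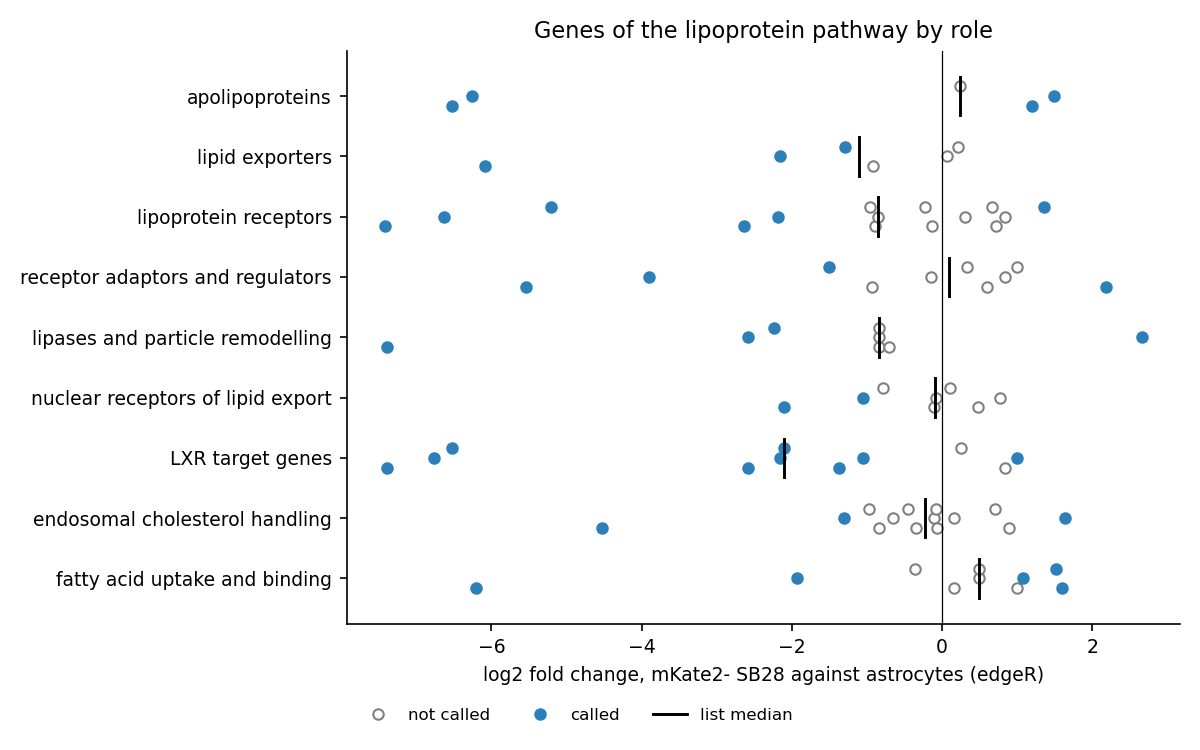
Log2 fold change of mKate2- SB28 cells against astrocytes (edgeR) for each gene tested, by role list, with genes called in blue, others open and the list median as a black line. A gene can stand in more than 1 list, and vertical offsets only separate points. The genes farthest to the left include those, such as Lpl, that passed the filter on low counts through astrocytes alone, so the medians are a description of the points drawn.

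The genes most like each member across the 9 libraries were listed by Pearson r of log2(CPM + 1) over 13450 genes. For Apoe they were Mapk4, Tox3 and Cttnbp2 (r of 0.999 each), and 2198 genes had r above 0.95, which is the separation of the cell types shared by all genes of that pattern. For Abca1 they were Nrg1, Cdk14 and Vangl2 (r of 0.993 to 0.997), and for Lrp1 they were Synrg, Tmem50b and Tgfb3 (r of 0.992 to 0.994). Lpl was closest to Grm8, Gm10421 and Klhl3 (r of 0.999 each), Nr1h2 to Naa80, Pfkm and Acadvl (r of 0.994 to 0.995) and Nr1h3 to Dzank1, Map3k9 and Fbxl7 (r of 0.980 to 0.988). Clu and Vldlr had the fewest genes above 0.95, at 1 and 20. The closest to Clu were Slc36a1, Tmem129 and Llgl2 (r of 0.928 to 0.952), and Fam160a1 and Eya1 were among the closest to Vldlr (r of 0.987 and 0.968).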

How the data were processed

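The authors trimmed reads with Trimmomatic 0.36, mapped them to GRCm38 with STAR 2.5.2b and deposited raw counts per gene from featureCounts (Subread 1.5.2). The annotation release and the use of strand are not given in the sources used here. Libraries were taken by their titles, because the sort gates in the labels and in the study's methods differ.

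Genes were named with GENCODE M21 (49056 of 49315 IDs), which also gave positions and exonic lengths for TPM. Comparisons used 6 libraries each and were fitted across all genes that exceeded 1 CPM in 2 or more of them, with TMM normalization, edgeR 4.0.16's quasi-likelihood test (R 4.3.3) and Benjamini-Hochberg adjustment. SE is the absolute log2 fold change divided by the square root of F. Depth makes counting error small except for Abcg1, Lpl and Nr1h3.

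The members and lists were chosen with earlier results of these data known. The text names all members, up to 4 genes per role list called the same way in both comparisons with astrocytes at a mean of at least 1 CPM, and 3 genes of highest r per member. Alternatives covered DESeq2 1.42.0, other normalizations and filters, a fit to all 9 libraries, a replicate block, removal of a gene length trend (loess, span 0.3) and leaving out each library. The procedures were tested on simulated data. Some genes that the naming rule selects are not reported here.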

Additional observations from a re-analysis of the deposited data

How the results depend on the processing

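The directions of Apoe, Abca1, Lpl and Nr1h3 against astrocytes and their calls held under every alternative that tested them, and leaving out libraries gave -6.61 to -6.47 and -6.75 to -6.56 for Apoe and -2.28 to -1.995 and -2.14 to -1.85 for Abca1 in mKate2- and mKate2+ cells. The count of members lower in mKate2+ cells was 3 with at least 10 counts in every library and 4 to 6 with libraries left out. For Nr1h2, leaving out libraries gave -1.16 to -0.86 and -1.18 to -0.86, for Lrp1 -1.03 to -0.69 and -1.001 to -0.67, for Clu -0.00528 to 0.54 and 0.0165 to 0.54, for Vldlr 0.41 to 0.90 and 0.33 to 0.81, for Lpl -7.82 to -6.89 and -8.08 to -7.40 and for Nr1h3 -2.41 to -1.54 and -3.77 to -2.91.

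Between mKate2+ and mKate2- cells, 23 genes were higher. This count was 62 with DESeq2, 224 with no filter, 41 in the fit to all 9 libraries and 13 with the gene length trend removed, and 6 (without mKate2+ replicate 2) to 310 (without mKate2+ replicate 1) with libraries left out. The 20 lower genes became 35 with no filter, 12 in the fit to all 9 libraries and 16 to 70 with libraries left out. The cause was not tested. Members not called in this comparison changed sign: Clu was -0.00961 and Vldlr 0.0140 with the length trend removed, and Nr1h2 was 0.00163 with no filter and 0.00604 in the fit to all 9 libraries. Leaving out libraries gave -0.179 to 0.169 for Clu, -0.0179 to 0.0644 for Lrp1, -0.173 to 0.0519 for Vldlr and -0.103 to 0.0889 for Nr1h2.

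Same-numbered libraries did not all deviate together (r of -0.00396, 0.137 and 0.170 between the SB28 groups). Libraries of different numbers had r of -0.179 to 0.0832 there. The numbers were not taken to pair samples, although the study's methods describe 3 distinct co-cultures. Whether the numbers do mark the co-culture was not settled. With a replicate block, mKate2+ cells had 13 higher and 33 lower genes, and the count of members called changed in no comparison.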

Other observations

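Fatty acid uptake and binding genes, the list next to lipoprotein transport, were divided. Of 13 genes 10 were tested, and Acsl1, Acsl4 and Acsl5 were higher and Fabp7 and Slc27a1 lower in both SB28 groups than in astrocytes, with medians of 0.49 and 0.63 on the log2 scale. Acsl4, an enzyme that activates arachidonic acid, was at 67.3, 117 and 95.9 CPM in astrocytes, at 281, 300 and 254 CPM in mKate2- cells and at 287, 217 and 257 CPM in mKate2+ cells. Acsl5 was at 75.0 to 83.4 CPM in astrocytes and 223 to 235 CPM in SB28 cells. Fabp7, the fatty acid binding protein of radial glia, was at 16.3, 17.9 and 12.5 CPM in astrocytes and at most 0.369 CPM in SB28 cells, so that it passed the filter on low counts through astrocytes alone. Among the 9 genes with a mean above 1 CPM in both cell types, 3 were higher and 1 was lower in each comparison. All genes with such levels had 12.1% and 13.1% higher and 13.0% and 13.2% lower. The fatty acid receptor Cd36 was at 4.67 CPM in astrocyte replicate 3 and at most 0.176 CPM in each of the other 8 libraries, and was named after its values were seen.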
